A study of Homo sapiens with 3 samples.

Results

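Matricellular and microfibril glycoproteins are a set of 10 genes, SPARC, MFAP4, MFAP5, FN1, TNC, POSTN, THBS1, THBS2, FBN1 and LUM. Their mRNA was measured by microarray in H1975 cells, which come from a human non-small cell lung carcinoma with mutant EGFR, and in OR1 and OR2. OR1 and OR2 are osimertinib-resistant lines that were selected independently from H1975, by raising the dose of osimertinib, an EGFR kinase inhibitor, in steps to 2 μmol/L during 4 months. The methods call OR1 and OR2 clones and state that the cell lines were not authenticated further by the authors, and whether osimertinib was present when RNA was taken is not given in the sources used here. All 3 lines were grown in RPMI medium with fetal bovine serum. The genes were picked by symbol, as every non-control probe that carries one of the 10 names, and they are 10 of 43316 genes and 12 of 58200 probes on the array. They were picked with earlier results of these arrays known, and the comparison of the 3 lines is part of how they were chosen, so their values are given as a description without a test.

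Matricellular proteins are secreted into the extracellular matrix, where they act on cell adhesion, migration and growth factor signaling more than on the strength of the matrix itself. SPARC (osteonectin), TNC (tenascin C), POSTN (periostin) and the thrombospondins THBS1 and THBS2 belong to this class. FN1 encodes fibronectin, an adhesive glycoprotein that binds integrins, and LUM encodes lumican, a small leucine-rich proteoglycan that binds collagen fibrils. FBN1 encodes fibrillin 1, the main component of microfibrils, the filaments that scaffold elastic fibers and bind latent TGF-β. MFAP4 and MFAP5 encode glycoproteins associated with these microfibrils. In tissue, many of these proteins come mostly from fibroblasts, and carcinoma cells that lose epithelial traits can make some of them.

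Each line was hybridized to 1 single-colour array, and the brightness of a spot after the scanner software's background correction is its intensity. Dividing the intensity by the array's 75th percentile (157 for H1975, 138 for OR1, 162 for OR2) gives the level. A ratio compares the level of a probe in 2 lines, and levels of different probes are not compared. The software called 45.6% to 45.9% of the probes well above background, and the lowest intensity with this call was 12.6 for both H1975 and OR2 and 11.4 for OR1. Where only one line of a pair lacked this call, that intensity, or the measured one if higher, was used for it and the ratio is a bound. No ratio was computed where this put the line without the call at or above the other line, or where both lines lacked the call. With 1 array per line there is no replicate, and the technical SD that goes with a ratio covers the measurement of 1 spot per array, not the variation between cultures. Following the methods, a ratio of at least 2 was counted as higher and a ratio of at most 0.5 as lower.

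The probes that carry the differences between the lines are shown by their first 30 bases, 5′ to 3′ in the sense of the mRNA. They are given so that the measured part of each transcript can be located. No base is capitalized, since no motif was searched.
SPARC: ccacatacctagatctccagatgtcatttc
MFAP4: aaattacacctggagtcaggtgcagaaggg
LUM: tttttatttctactgtcaaatgatgtgcaa
THBS1, downstream probe: aataagctgctctgccccttgtgctcagag
THBS1, upstream probe: aagttccaagacctggtggatgctgtgcgg
FN1: aatactctttctgcacagaccacactgttt
Each probe is 60 bases long. On hg19 the SPARC probe (NM_003118) lies on the minus strand of chr5:151041040-151041099, the MFAP4 probe (NM_002404) on the minus strand of chr17:19286813-19286872 and the LUM probe (NM_002345) on the minus strand of chr12:91497646-91497705. Both THBS1 probes (NM_003246) lie on the plus strand, at chr15:39888831-39888890 and chr15:39874546-39874605. The FN1 probe (NM_054034) lies on the minus strand and spans 679 bases, chr2:216288217-216288895, more than its own length, so it matches the genome in separate pieces. Exon and UTR positions on hg19 were not used here. None of the 12 probes shared 20 bases in a row, on either strand, with another probe of the array.

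The 10 genes divided into 6 that were measured and 4 that were not. SPARC, MFAP4, FN1, TNC and THBS1 were well above background in all 3 lines, and LUM was so in OR1 only. MFAP5, POSTN, THBS2 and FBN1 were not well above background on any array. Between OR1 and OR2, 5 of the 6 measured genes differed by a ratio of at least 2 or at most 0.5, against 5.37% of the 21432 genes with a ratio in this comparison. MFAP4, LUM, FN1 and THBS1 were higher in OR1 (2.89% of all genes), and SPARC was lower (2.48%). Against H1975, 3 of 6 passed these ratios in OR1, with 18.8% of genes as the background. MFAP4 and LUM were higher (background 9.17%) and SPARC lower (9.58%). In OR2, 1 of 5 passed, with a background of 16.4%. No member was higher (7.72%) and FN1 was lower (8.70%). No member passed in the same direction in both lines, against 5.40% of genes higher in both and 6.71% lower in both. Both ratios to H1975 share the H1975 array. Since the genes were chosen with these ratios known, the counts describe the set and nothing is read from them about it.

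**Figure D1:**
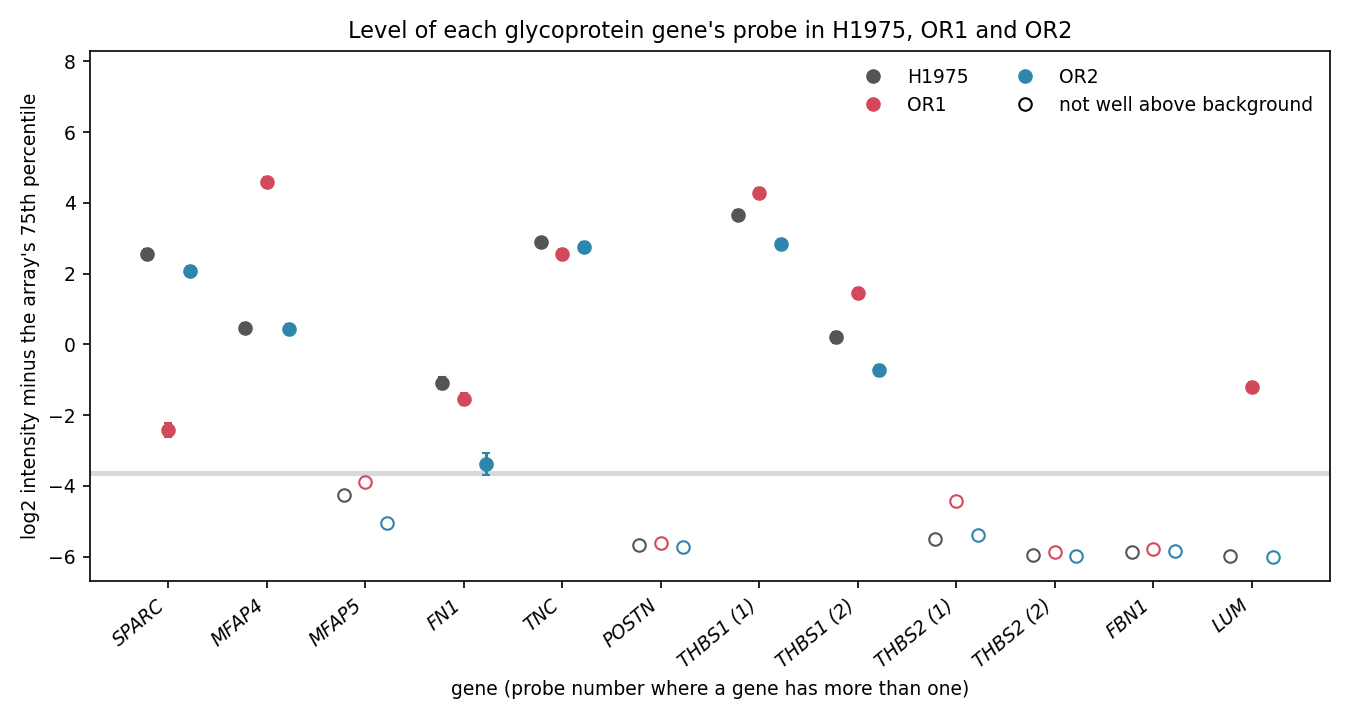
Level of each of the 12 probes as log2 intensity minus the 75th percentile of its array, for H1975 (grey), OR1 (red) and OR2 (blue), with bars for the technical SD; open symbols were not well above background, and the grey band marks the lowest level called so on the 3 arrays. SPARC in OR1 sits under H1975 with a log2 ratio of -4.99, MFAP4 in OR1 sits 4.14 above it, and LUM is above the band in OR1 only.

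SPARC, a secreted calcium-binding protein that binds collagen, gave 928 intensity units for H1975, 25.6 for OR1 and 681 for OR2. OR1 was the low line, whereas H1975 and OR2 lay near each other. The SPARC level in OR1 was 31.8-fold lower than in H1975, a log2 ratio of -4.99 with a technical SD of 0.25. It was rank 19 from the lowest among the ratios of 18937 genes well above background in OR1 and H1975. In OR2 the ratio to H1975 was 0.714, a log2 ratio of -0.49 with a technical SD of 0.20, and so did not pass 0.5. SPARC was 22.7-fold lower in OR1 than in OR2. In such bulk samples, fewer cells that express a gene and less RNA per cell cannot be told apart. Of 19399 genes well above background in both resistant lines, SPARC was rank 2 from the lowest by the ratio of OR1 to OR2. Normexp is another background correction, which adds an offset of 50 to every corrected intensity and so draws ratios of low intensities towards 1. With normexp the ratio of OR1 to H1975 was 0.0907 in place of 0.0314.

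MFAP4, a microfibril-associated protein with a fibrinogen-like domain, was at an intensity of 3347 in OR1, against 217 in H1975 and 218 in OR2. OR1 stood alone at the high end. The MFAP4 level was 17.6-fold higher in OR1 than in H1975 (log2 ratio 4.14, technical SD 0.21), which was rank 33 from the highest of 18937 genes. The ratio of OR2 to H1975 was 0.978, and this log2 ratio of -0.03 is smaller than its technical SD of 0.21. In the comparison of OR1 with OR2, MFAP4 had a ratio of 18.0, which is rank 1 from the highest among the 19399 genes well above background in both lines. When the arrays were scaled on spike-in probes, the ratio of OR1 to H1975 was 11.6, a log2 ratio of 3.54. The median over all genes was -0.59 under that scaling.

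LUM, the collagen-binding proteoglycan, was at an intensity of 59.8 in OR1, against 2.50 in H1975 and 2.53 in OR2. It was well above background in OR1 and not in the other two lines. The LUM level in OR1 was at least 5.43-fold higher than in H1975 and at least 5.55-fold higher than in OR2. No ratio of OR2 to H1975 was computed, as both were below the call. With normexp the bound against H1975 was at least 1.94, which does not reach 2.

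The fourth member with a higher level in OR1 than in OR2 was THBS1, an adhesive glycoprotein that inhibits angiogenesis and activates latent TGF-β. THBS1 was measured by a pair of probes. The downstream probe, which was the brighter and stands for the gene in the counts, read 1997 for H1975, 2694 for OR1 and 1160 for OR2 as intensity. The upstream probe read 181, 379 and 97.5 in the same order. Both probes placed OR1 highest, H1975 between and OR2 lowest. The ratio of OR1 to H1975 was 1.54 by the downstream probe and 2.39 by the upstream probe, so the probes fall on different sides of 2. The ratio of OR2 to H1975 was 0.566 and 0.523, and neither passed 0.5. Each of these 4 log2 ratios was larger than its technical SD of 0.20 or 0.21. Directly between the resistant lines, THBS1 was 2.72-fold higher in OR1 than in OR2 by the downstream probe and 4.56-fold higher by the upstream probe. With spike-in scaling the downstream probe had a ratio of OR1 to H1975 of 1.01 and of OR1 to OR2 of 1.71, under 2. With that scaling the upstream probe had 1.57 and 2.87, so that against H1975 neither probe passed 2, and between OR1 and OR2 only the upstream one did. The downstream log2 ratios were then 0.02 to H1975 and 0.77 to OR2, beside medians over all genes of -0.59 and -0.62 under that scaling.

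The array lists a single RefSeq transcript for its FN1 probe, transcript variant 7, whereas RefSeq holds 18 transcripts of FN1, and whether the probe detects the others was not checked. The FN1 intensity was 73.7 for H1975, 47.5 for OR1 and 15.5 for OR2. OR2 was the low line and lay near the lowest intensity called well above background on its array. The ratio of OR2 to H1975 was 0.205 (log2 ratio -2.29, technical SD 0.35), and that of OR1 was 0.735 (log2 ratio -0.44, technical SD 0.23). FN1 was 3.59-fold higher in OR1 than in OR2. The summed level of 7 fibroblast markers was 0.666 for OR2, 4.38 for H1975 and 4.57 for OR1. Only 1 of these markers was well above background in OR2, 2 in OR1 and 3 in H1975, and the sum includes the rest. Whether the markers have a part in the FN1 ratios was not tested. With normexp the ratio of OR2 to H1975 was 0.545 and that of OR1 to OR2 was 1.63, and both calls were lost. The normexp offset of 50 exceeds the FN1 intensities of OR1 and OR2 and by itself draws these ratios towards 1. With spike-in scaling the ratio of OR1 to H1975 was 0.484, which passes 0.5. This is a log2 ratio of -1.05, beside a median of -0.59 over all genes under that scaling.

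**Figure D2:**
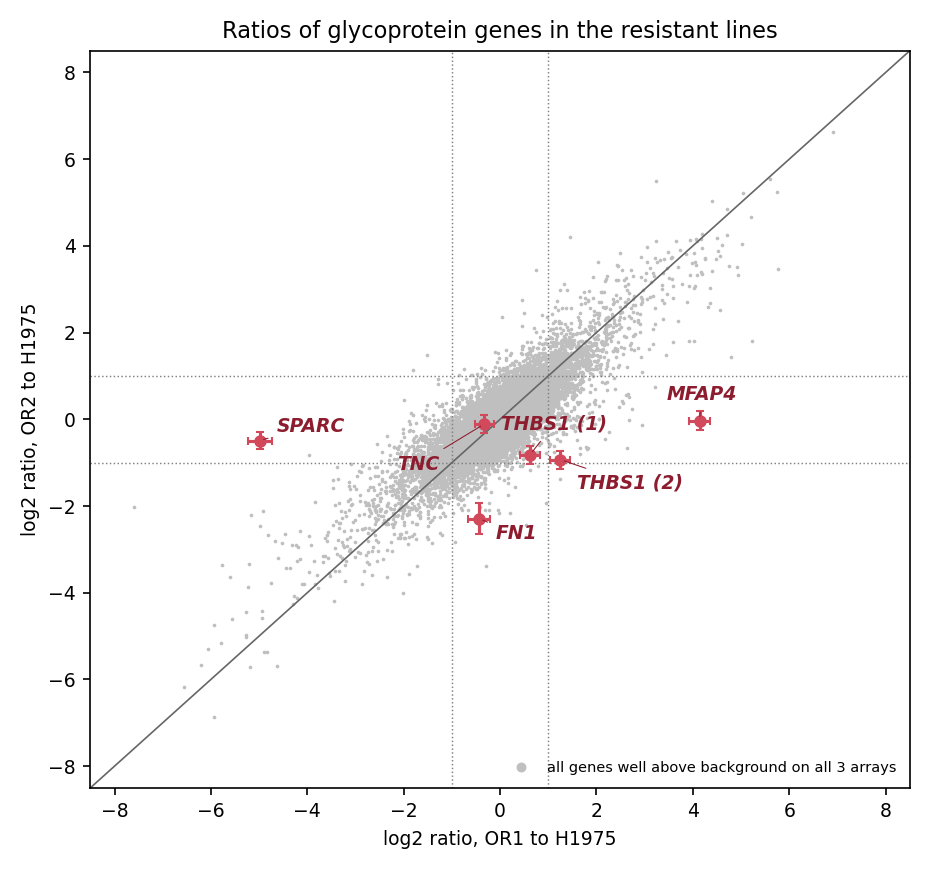
Log2 ratio to H1975 in OR1 (horizontal axis) and in OR2 (vertical axis) for genes with the call well above background in every line (grey) and for the members among them (red, bars for the technical SD), with dotted lines at ratios of 2 and 0.5 and a diagonal of equal ratios. SPARC (0.0314 in OR1, 0.714 in OR2) and MFAP4 (17.6 and 0.978) lie far from the diagonal, while TNC lies near the centre; THBS1 (1) is the downstream probe and THBS1 (2) the upstream one.

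TNC, a large matrix glycoprotein that modulates cell adhesion, was the one measured member that passed neither ratio in any of the 3 comparisons. TNC (NM_002160, chr9:117783310-117783369) gave intensities of 1158 for H1975, 808 for OR1 and 1099 for OR2. Its ratio to H1975 was 0.796 in OR1 (log2 ratio -0.33, technical SD 0.20) and 0.924 in OR2 (log2 ratio -0.11, technical SD 0.20). The difference of OR2 from H1975 was thus smaller than the technical SD. The ratio of OR1 to OR2 was 0.861, about as large on the log2 scale, at -0.22, as its technical SD of 0.20.

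For the other 4 genes the arrays give no level. MFAP5 (NM_003480), whose protein binds fibrillin microfibrils, had intensities of 8.27 for H1975, 9.37 for OR1 and 4.90 for OR2. POSTN (NM_006475) had intensities of 3.11, 2.82 and 3.04 in the same order, and FBN1 (NM_000138) of 2.72, 2.52 and 2.81. THBS2 (NM_003247), a thrombospondin related to THBS1, was at 3.50, 6.46 and 3.88 by one probe and 2.55, 2.35 and 2.56 by the other. None of these values reached the lowest intensity called well above background, so that no ratio was computed for these genes and an expression below this limit cannot be seen.

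Across the 6 measured members the median log2 ratio was 0.15 in OR1, with 3 above and 3 below 1, against 0.04 over all 21864 genes with a ratio. It turned to -0.04 without scaling, to -0.46 with spike-in scaling and to -0.33 without LUM, which is lost when all 3 arrays must be well above background. In OR2 the median was -0.49 over 5 members, all with ratios below 1, against -0.06 over 21686 genes, and it was -0.09 without a background filter. Of these ratios, MFAP4 (0.978) and TNC (0.924) differed from 1 by less than the technical SD. MFAP4 was at 1.03 with spike-in scaling. The size of the log2 ratio between OR1 and OR2, regardless of sign, had a median of 2.16 in the members and 0.30 over all genes. The members were chosen with these ratios known, so this is a description. The ratio of LUM, which enters this median, is a bound. Over all genes, the median log2 ratio of OR1 to H1975 was -0.59 under spike-in scaling.

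Related genes of the same matrix systems were taken from 4 lists, 73 genes in all. Each is given by 1 probe, the one with the highest mean level. Some have more, such as TNXB with 6 probes and THBS3 with 2, and the ratios of those other probes are not given. Of 54 related genes with a ratio in OR1, 16 were higher and 9 lower, and of 53 in OR2, 14 were higher and 12 lower. These are 46.3% of the related genes in OR1 and 49.1% in OR2, beside 18.8% and 16.4% of all genes, and beside 3 of 6 and 1 of 5 members. In both lines 13 related genes were higher and 8 lower, of 52 with both ratios, beside 5.40% and 6.71% of all genes. With the median over the probes of a gene, these numbers were again 13 and 8. Between OR1 and OR2, 7 of 48 (14.6%) passed a ratio of 2 or 0.5, beside 5.37% of all genes. The members, of which 5 of 6 passed, were chosen with these ratios known. The related lists were also drawn up with earlier results of these data known, so their shares are a description. No difference between the related genes and the members or all genes was tested.

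Among 26 microfibril and elastic fiber genes, 6 were higher and 2 lower in both lines. EMILIN2, an elastin microfibril interface protein, had a ratio of 22.7 for OR1 and 18.3 for OR2, and LOXL4, a lysyl oxidase that crosslinks matrix proteins, 16.4 and 8.47. ADAMTSL2 had 10.3 and 7.98, the fibulins FBLN1 6.41 and 4.32 and FBLN2 3.10 and 4.39, and EFEMP2 3.22 and 2.71. MFAP2, another microfibril-associated glycoprotein, had ratios of 0.196 and 0.124. LTBP1, which tethers latent TGF-β to microfibrils, had 0.234 in OR1 and at most 0.0878 in OR2.

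Among 22 matricellular and adhesive genes, 5 were higher and 4 lower in both lines. TNXB, a tenascin whose gene has a near-identical partial copy that the probe may also detect, had ratios of 14.6 and 14.1. FSTL1, a SPARC family member, had 3.64 and 2.45, CTGF 3.68 and 2.41, the thrombospondin THBS3 2.31 and 2.21, and THBS4 at least 3.30 and at least 4.12. SMOC2 and SPOCK1, both with domains related to SPARC, were lower, SMOC2 at most 0.0281 and at most 0.0266 and SPOCK1 0.0327 and 0.0415. TGFBI, a periostin relative, had 0.307 and 0.216, and TNN, a tenascin, at most 0.487 and at most 0.459. SPARC, which shares domains with FSTL1, SMOC2 and SPOCK1, had 0.0314 and 0.714 beside them.

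Among 12 small leucine-rich proteoglycans, 2 were measured and both were higher in both lines, ECM2 at least 4.79-fold and at least 3.38-fold and PODNL1 4.73-fold and 4.42-fold. Of 13 cell surface receptors, none was higher and 2 were lower in both lines, the integrin subunits ITGB3 (0.283 and 0.264) and ITGB6 (at most 0.0733 and at most 0.0692). The thrombospondin receptor CD47 had ratios of 0.394 and 0.541. CD36, another receptor of THBS1, was well above background in OR1 only, at least 2.71-fold above H1975. CD47 and CD36 were named after their values were seen.

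**Figure D3:**
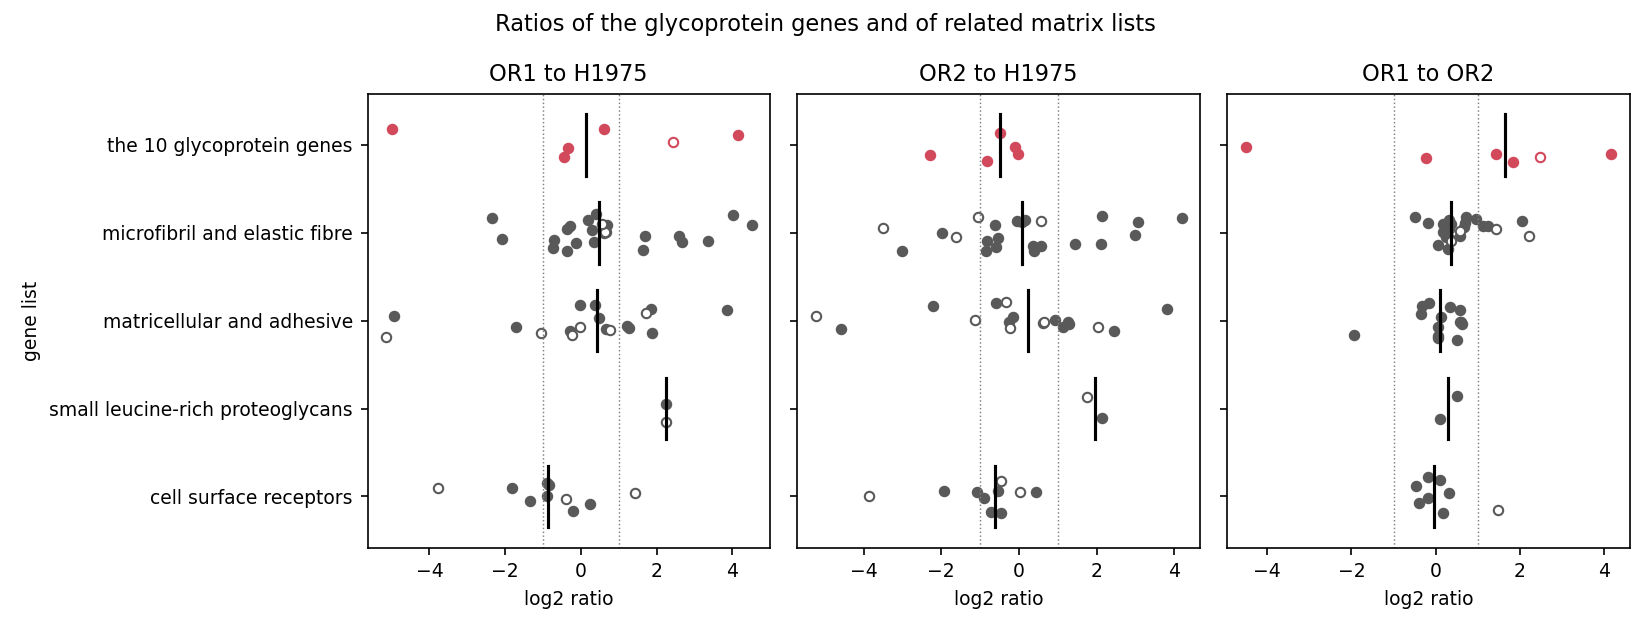
Log2 ratios of OR1 to H1975, OR2 to H1975 and OR1 to OR2 for the members (red) and the 4 related lists (grey), 1 point per gene, with open points for bounds, vertical bars for medians and dotted lines at ratios of 2 and 0.5. In the panel of OR1 to OR2, 5 of 6 members and 7 of 48 related genes lie outside the dotted lines.

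The genes beside the members were compared as well, 2 protein-coding genes on each side in RefSeq order (GRCh38.p14), a choice made after the values of the members were seen. Of 24 such neighbors, 15 had a ratio of OR1 to OR2, between 0.679 and 2.88. Of these 15, 3 passed 2, beside 2.89% of all genes, and no difference was tested. The neighbors of SPARC, namely SLC36A1, ATOX1 and G3BP1, had ratios of OR1 to OR2 of 1.09, 1.26 and 1.18, while FAT2 (intensity 6.58 in OR1, 13.2 in OR2) lacked the call in OR1 and had no ratio. Beside MFAP4, B9D1 had a ratio of 0.958, MAPK7 1.37 and RNF112 0.679. LUM lies in a cluster with KERA, EPYC and DCN, which encode small leucine-rich proteoglycans too. None of these 3 had the call on any array, and the highest of their intensities was 5.61, for DCN in OR1. Near THBS1, FAM98B had a ratio of OR1 to OR2 of 2.58 and FSIP1 of at least 2.45, and near TNC, PAPPA had 2.88. Their intensities in OR1 and OR2 were low, at 57.5 and 26.1 for FAM98B, 27.7 and 13.2 for FSIP1, and 50.8 and 20.7 for PAPPA. FSIP1 lacked the call in OR2. EIF2AK4 beside THBS1 and ASTN2 beside TNC passed neither 2 nor 0.5, and RASGRP1 beside THBS1 had no ratio. ATIC, MREG and PECR beside FN1 and BTG1 beside LUM also passed neither.

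The label of the cells was set against marker genes. All 6 epithelial markers (EPCAM, CDH1, KRT7, KRT8, KRT18 and KRT19) were well above background in all 3 lines, and their summed level was 2480 for H1975, 1071 for OR1 and 1064 for OR2. Of 7 fibroblast markers, H1975 had 3 well above background, OR1 had 2 and OR2 had 1. COL3A1, DCN, PDGFRA and THY1 lacked the call on all 3 arrays. The 3 endothelial markers were all well above background, with summed levels of 0.565 for H1975, 0.709 for OR1 and 0.642 for OR2. Of 2 leukocyte markers found on the array, PTPRC was well above background on every array and CD3E on none. Their summed level was low, at 0.152 for H1975, 0.18 for OR1 and 0.145 for OR2. The part of other cells in the ratios of the members was not tested.

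The ratios of OR1 to OR2 kept their direction for all 6 measured members under every processing choice that gave a value. SPARC lay between 0.0276 and 0.123 and MFAP4 between 11.3 and 18.0. LUM had a lowest bound of at least 2.01 with normexp, THBS1 a lowest ratio of 1.71 and FN1 of 1.63. TNC stayed between 0.541 and 0.861.

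**Figure D4:**
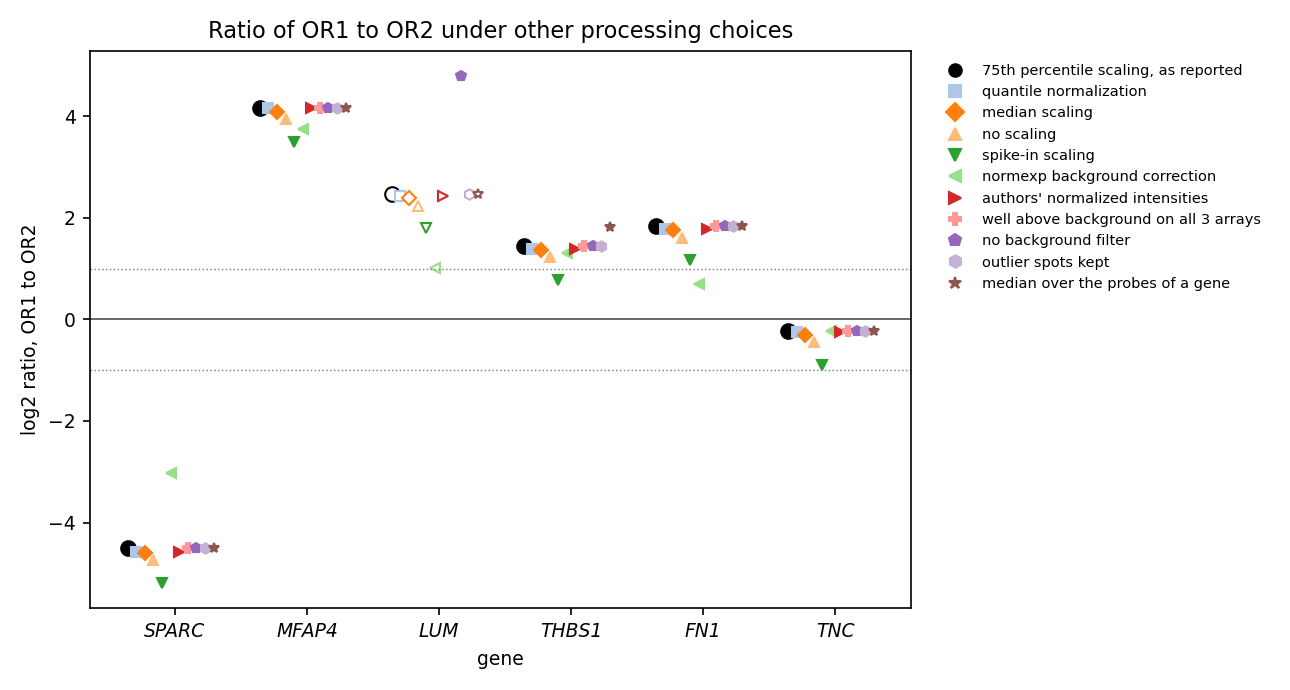
Log2 ratio of OR1 to OR2 for the 6 measured members under the reported scaling (black) and 10 other processing choices, with open symbols for bounds and dotted lines at ratios of 2 and 0.5. Spike-in scaling shifts every gene down and normexp moves SPARC, LUM and FN1 towards 0, and no gene crosses 0.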

How the data were processed

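RNA of each line was labeled with Cy3 and hybridized by the authors to Agilent 8 × 60 K arrays. The deposited scanner files hold intensity values, corrected for background and spatial trends within the array by Agilent Feature Extraction and not scaled between arrays (version 10.7.1.1 per the file headers, 9.5.1.1 per the submitters' processing notes). The authors also deposited a table of normalized intensity values, 1 per probe, whose method is not given in the sources used here. The deposited flags, well above background, saturated and outlier, are 0 or 1.

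From the scanner files, spots flagged as outliers were left out, repeated spots were averaged on the log2 scale, and the 75th percentile of each array was subtracted. The probe with the highest mean level stood for a gene in counts. Of 62976 spots on an array, 60901 were probes for genes or other targets, and 0 were saturated. The number of arrays limits the precision. The members and all lists were chosen with earlier results of these data known. The named genes are the 10 members with all their probes, and related genes past the ratio of 2 or 0.5 in the same direction in both lines. CD47, CD36 and the genes beside the members fall outside this rule and were named after their values were seen. The accessions of all 12 probes carry the same symbol in RefSeq (GRCh38.p14), which was used for names and gene order only. The alternatives were quantile, median, spike-in (7 probes) and no scaling, normexp with an offset of 50, the authors' normalized values, 2 background filters, kept outliers, no saturated spots, the median over probes, and ratios of 4 and 1.5. The calling code was run on simulated arrays. The planted changes were larger than a ratio of 2, in probes well above background, with spot noise only. Such a run checks the code, not the variation between cultures or ratios near background. Python 3.11.15, numpy 2.4.6, pandas 2.3.3, R 4.3.3 and limma 3.58.1 were used.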

Additional observations from a re-analysis of the deposited data

Results flagged for a closer look

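THBS1 lay above H1975 in OR1 and below it in OR2 by both of its probes, each by more than the technical SD with the reported scaling. The ratio to H1975 was 1.54 in OR1 and 0.566 in OR2 by the downstream probe, and 2.39 in OR1 and 0.523 in OR2 by the upstream probe. With spike-in scaling the ratio of OR1 was 1.01 by the downstream probe, a log2 ratio of 0.02 that is smaller than its technical SD of 0.20, and 1.57 by the upstream probe. The median log2 ratio of OR1 to H1975 over all genes was -0.59 under that scaling. Whether OR1 and OR2 differ in this respect was not tested.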

How the results depend on the processing

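Every call rests on 1 array per line, and low intensity over background limits the ratios of LUM, FN1 in OR2 and SPARC in OR1. No paired analysis was possible because each line has 1 array. Against 2 members higher and 1 lower in OR1, normexp gave 1 higher, a filter on all 3 arrays 1 higher, since LUM is then lost by construction, and spike-in scaling 2 lower, SPARC and FN1. No background filter and a ratio of 1.5 each gave 3 higher in OR1. Against 1 member lower in OR2, normexp gave 0 and a ratio of 1.5 gave 2. Against 0 members lower in both lines, spike-in scaling gave 1, FN1. Against 4 members higher in OR1 than in OR2, a ratio of 4 gave 2, spike-in scaling, normexp and the filter on all 3 arrays gave 3 each, and no background filter gave 5. The median log2 ratio of the members in OR1, 0.15, turned to -0.04 without scaling, to -0.46 with spike-in scaling and to -0.33 with the filter on all 3 arrays, and in OR2 it went from -0.49 to -0.09 without a background filter. Normexp adds an offset of 50, which by itself draws the ratios of low intensities towards 1. Under spike-in scaling the median log2 ratio of OR1 to H1975 over all genes went from 0.04 to -0.59. That of FN1 went from -0.44 to -1.05. For OR1 to OR2 the median over all genes went from 0.07 to -0.62. Beyond this, and except where named, the cause was not tested. For the comparison of OR1 with OR2 these alternatives were chosen after seeing the data. Related genes higher in both lines numbered 13, and 8 with normexp or 6 with a ratio of 4. Related genes lower in both numbered 8, and 4 with the filter on all 3 arrays, 5 with a ratio of 4 or 13 with a ratio of 1.5.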
